A study of Homo sapiens with 11 samples.

Results

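The core cardiac transcription factors are 10 genes, GATA4, GATA6, NKX2-5, TBX5, TBX20, MEF2A, MEF2C, HAND1, HAND2 and ISL1, taken by symbol from a table of read counts for 19990 genes. All 10 were in the table and all 10 passed the filter on low counts. They were followed in cardiomyocytes derived from the established line WTC11, which consists of human induced pluripotent stem cells, here at passage 63. The cells came from a single differentiation with the GSK3 inhibitor CHIR99021 followed by IWP2, which blocks Wnt secretion. Every well was then held in RPMI1640 with B27 and insulin and collected at Day 30 (4 wells), Day 60 (3 wells) or Day 113 (4 wells). No well carried a genetic change or received a further agent. The wells are replicates of 1 differentiation of 1 line, so each p-value measures the spread between such wells only, and day cannot be told apart from collection.

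These factors bind DNA at the enhancers and promoters of heart genes, often side by side, and several activate one another's genes. GATA4, NKX2-5 and TBX5 are known for acting together on sarcomere and natriuretic peptide genes, while MEF2 factors act on muscle genes in many tissues. HAND1 and HAND2 are basic helix-loop-helix factors of the left and right ventricle of the embryo, and ISL1 marks progenitors of the second heart field and stays on in the sinoatrial node. Mutations in GATA4, NKX2-5, TBX5 and TBX20 cause congenital heart defects.

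Most of the factors fell over the long culture, and HAND1 and ISL1 fell furthest. From Day 30 to Day 113, 6 of the 10 were called lower and 0 higher (GATA4, GATA6, TBX20, HAND1, HAND2 and ISL1), and the only value above 0 was a log2 fold change of 0.03 for MEF2A. MEF2C was also called lower when the well number entered the fit as a block. Called means an adjusted p under 0.05 in the quasi-likelihood F-test of edgeR, adjusted over all 19990 genes. Over all genes, 34.5% were called in that comparison, 17.3% higher and 17.2% lower. From Day 60 to Day 113, 6 were called lower (GATA4, TBX5, TBX20, HAND1, HAND2 and ISL1) and 0 higher, with NKX2-5 alone above 0 at 0.04, where 24.0% of all genes were called, 12.9% higher and 11.1% lower. From Day 30 to Day 60, TBX5 rose and HAND1 fell, and the other 8 were not called. There 10.3% of all genes were called, 4.39% higher and 5.91% lower. The median log2 fold change of the 10 factors was -0.05 to Day 60, -0.53 from Day 60 to Day 113 and -0.40 over the whole course. The medians of all genes were -0.01, 0.0016 and -0.02 in the same order. Across the 3 days jointly, 7 of the 10 were called, beside 37.1% of all genes, and NKX2-5, MEF2A and MEF2C were not. In bulk RNA, fewer cells of a type cannot be told apart from less RNA per cell.

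**Figure D1:**
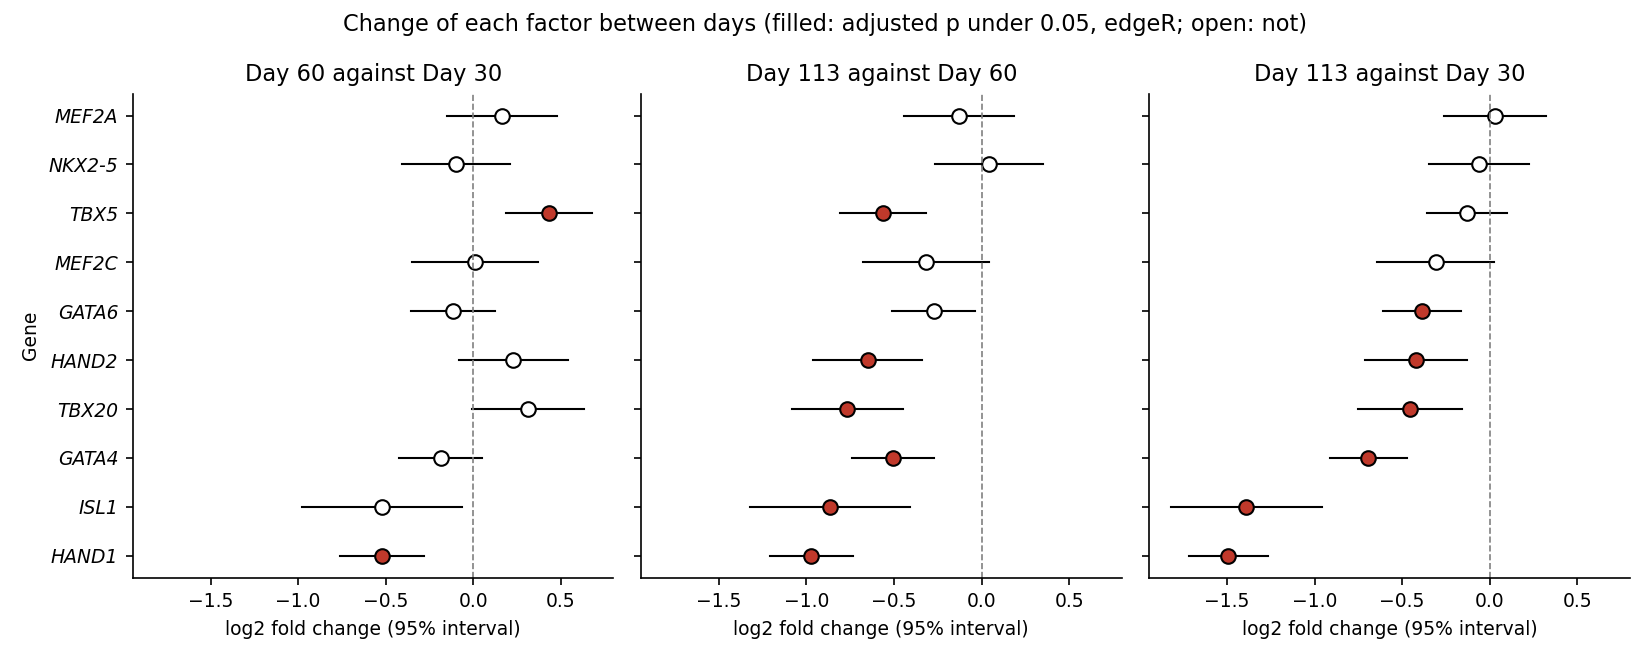
Log2 fold change of each factor between days from edgeR, with 95% intervals as horizontal lines and filled points for an adjusted p under 0.05. Every filled point lies left of 0 except TBX5 between Day 30 and Day 60 (0.43), and the largest fall is that of HAND1 over the whole course (-1.49).

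Promoter sequence was available for 8 of the 10 genes in a RefSeq table of the GRCh38.p14 assembly, and GATA4 and NKX2-5 had no entry. The 4 stretches below lie directly upstream of the gene start. They are shown because HAND1 and ISL1 fell furthest, and because TBX5 and HAND2 had their highest mean at Day 60 and have an annotated exon of an antisense gene across this window. The ISL1 window is also crossed by an annotated exon on the opposite strand, of AC010478.1. Capitals mark matches to binding motifs of the factors themselves. The HAND2 stretch is chr4:173530230-173530479 on the minus strand, the TBX5 stretch chr12:114408443-114408692 (minus), the HAND1 stretch chr5:154478265-154478477 (minus) and the ISL1 stretch chr5:51383198-51383390 (plus).
HAND2: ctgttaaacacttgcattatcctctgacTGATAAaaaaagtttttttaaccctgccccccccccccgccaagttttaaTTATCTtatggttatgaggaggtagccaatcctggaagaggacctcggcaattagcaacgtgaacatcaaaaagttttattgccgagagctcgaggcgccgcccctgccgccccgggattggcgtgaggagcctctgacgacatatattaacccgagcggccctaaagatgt
TBX5: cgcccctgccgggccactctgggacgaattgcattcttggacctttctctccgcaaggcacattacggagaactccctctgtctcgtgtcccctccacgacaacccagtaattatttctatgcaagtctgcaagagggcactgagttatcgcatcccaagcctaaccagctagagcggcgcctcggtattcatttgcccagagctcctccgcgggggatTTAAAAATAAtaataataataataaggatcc
HAND1: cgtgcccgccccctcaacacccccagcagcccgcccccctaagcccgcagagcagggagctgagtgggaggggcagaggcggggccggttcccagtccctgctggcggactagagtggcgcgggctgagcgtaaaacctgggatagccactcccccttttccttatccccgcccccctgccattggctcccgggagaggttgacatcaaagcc
ISL1: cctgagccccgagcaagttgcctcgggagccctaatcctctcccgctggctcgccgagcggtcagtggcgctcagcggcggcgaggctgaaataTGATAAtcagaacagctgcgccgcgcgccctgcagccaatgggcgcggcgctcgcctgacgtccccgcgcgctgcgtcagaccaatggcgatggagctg
The search covered both strands for GATA motifs (AGATAA or AGATAG with A as the first base, TGATAA or TGATAG with T), the NKX2-5 motif TNAAGTG, the T-box core AGGTGT, the HAND E-box CATCTG, the ISL1 motif TAATGG and the MEF2 consensus. The HAND2 stretch held 2 GATA matches, the ISL1 stretch 1 GATA match and the TBX5 stretch 1 MEF2 match, while the HAND1 stretch held no match. The full ISL1 promoter entry, which runs past the gene start to base 51383447, held 2 GATA matches. Another TBX5 promoter entry, chr12:114408013-114408262 inside the gene and not shown, also held 2 GATA matches. In the 250 bases upstream of 27305 promoters of the same table, GATA motifs matched in 22.9% and the MEF2 consensus in 2.90%. The NKX2-5 motif matched in 8.84%, the T-box core in 9.66%, the HAND E-box in 12.2% and the ISL1 motif in 5.96%. The HAND1 and ISL1 stretches are shorter than that window, at 213 and 193 bases. A match is a description of letters, and binding was not measured.

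Depth was 24.1 to 34.5 M counts per library (M, units of 1000000), and the 10 factors together took 0.263 to 0.305% of the counts at Day 30, 0.282 to 0.327% at Day 60 and 0.216 to 0.236% at Day 113. Levels below are counts per 1000000 counts after TMM scaling (CPM). ISL1, the least abundant, was still covered by 76 to 372 counts per library. The edgeR estimate of variation between wells of a day (biological coefficient of variation), 1 value per gene for all days, was 0.110 to 0.161 for 9 of the factors and 0.208 for ISL1. Its median over all genes, at any level of counts, was 0.205. The spread was not even over days. The SD of log2 CPM was higher at Day 113 than at Day 30 for all factors but GATA6, TBX5 and HAND1, as for MEF2C (0.40 against 0.11). The cardiomyocyte label held in every library: the 10 cardiomyocyte markers summed to 35092 to 47169 CPM at Day 30, 43951 to 49796 at Day 60 and 37449 to 40786 at Day 113. Every Day 113 sum lay below every Day 60 sum, and MYH7 held 36.6, 31.6 and 24.0% of the 3 days' sums. Against Day 30, 2 markers were higher and 2 lower at Day 113, beside 17.3% and 17.2% of all genes. Against Day 60, 1 was higher and 2 lower, beside 12.9% and 11.1%. The part of cardiomyocyte content in the changes of the factors was not tested.

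Markers of other cells also moved with day. The 10 endothelial markers summed to 63.0 to 94.0 CPM at Day 30, 43.5 to 72.8 at Day 60 and 232 to 928 at Day 113, and all 10 were called higher at Day 113 than at Day 30. The 12 fibroblast and epicardial markers summed to 2687 to 5855, 1874 to 2913 and 4388 to 10352 CPM, with 6 higher and 4 lower at Day 113 than at Day 30. The 10 endoderm and liver markers in the table summed to 486 to 1404 CPM at Day 30, 54.3 to 65.7 at Day 60 and 27.6 to 59.3 at Day 113, with 9 of 10 called lower at either later day than at Day 30. The 6 smooth muscle markers in the table summed to 817 to 1037, 825 to 1056 and 981 to 1534 CPM, and 3 of them were higher at Day 113 than at Day 30. The 4 neural markers in the table summed to 16.6 to 35.1 CPM over all wells, and 0 of them were called by edgeR between Day 30 and Day 113 (1 at an unadjusted p under 0.05). Beside these counts, 17.3% of all genes were called higher and 17.2% lower at Day 113 than at Day 30. At Day 60, 5.91% of all genes were called lower than at Day 30. No marker in the table was at 0 in all wells of a day. Their part in the changes of the factors was not tested.

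**Figure D2:**
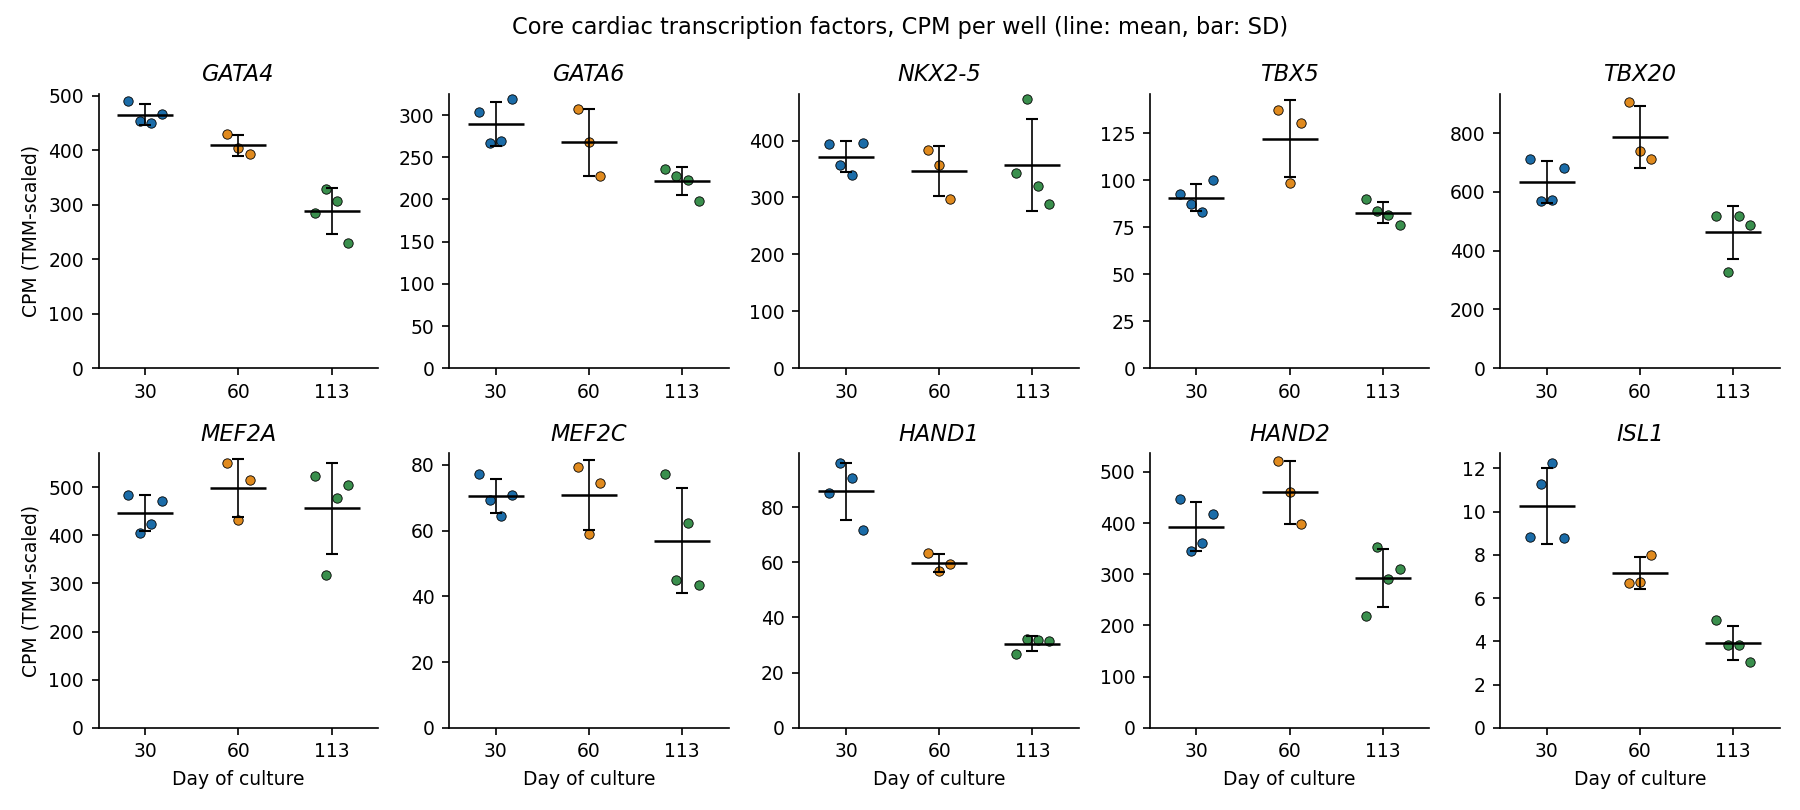
CPM of each factor in every well by day of culture, with a line at the mean and a bar for the SD. HAND1 falls at each step with no overlap between days, TBX5 and TBX20 have their highest mean at Day 60, and NKX2-5 and MEF2A keep overlapping ranges.

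GATA4, on chromosome 8 (hg38, 11676959 to 11760002), encodes a zinc-finger factor needed for heart tube formation and for hypertrophic growth. Its level was 491, 454, 449 and 467 CPM in the 4 wells of Day 30, 429, 404 and 392.5 CPM at Day 60, and 285, 329, 306 and 230.3 CPM at Day 113. No pair of days overlapped, with Day 30 highest and Day 113 lowest. GATA4 fell by 0.69 on the log2 scale from Day 30 to Day 113 (SE 0.10, edgeR adjusted p = 8.9e-05), which is 1.62-fold. Most of that lay after Day 60 (-0.51, SE 0.11, adjusted p = 0.0037), while the step to Day 60 was not called (-0.19, 95% interval -0.42 to 0.05, adjusted p = 0.35). The difference between the steps was itself not called (-0.32, adjusted p = 0.34). The second step covers more days than the first, and neither was scaled per day.

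GATA6, on chromosome 18 (22169443 to 22202528), is the close relative of GATA4 and overlaps it in function in the heart and in endoderm. It stood at 304, 267, 269 and 319 CPM at Day 30, 307, 268 and 228 CPM at Day 60, and 236, 228, 224 and 198 CPM at Day 113. All Day 113 wells lay below all Day 30 wells, while Day 60 overlapped both. GATA6 fell 1.31-fold from Day 30 to Day 113 (log2 fold change -0.39, SE 0.10, edgeR adjusted p = 0.0088). Its step from Day 60 to Day 113 was not called (-0.27, 95% interval -0.51 to -0.04, adjusted p = 0.091). That step passed with upper-quartile scaling (adjusted p = 0.031), with DESeq2 (0.044) and without Day 60 well 3 (0.032). The joint edgeR call of GATA6 over the 3 days was lost without Day 30 well 1 (adjusted p = 0.055), Day 30 well 4 (0.056) or Day 113 well 4 (0.073). Within each well, GATA6 had fewer counts than GATA4 at every day. The log2 ratio of GATA6 to GATA4 counts was -0.69 ± 0.10 (SD, n = 4) at Day 30, -0.62 ± 0.15 (n = 3) at Day 60 and -0.37 ± 0.15 (n = 4) at Day 113.

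NKX2-5, on chromosome 5 (173232109 to 173235357), encodes the homeodomain factor that is among the first to mark committed heart cells and that works with GATA4 and TBX5. Its level was 394, 357, 339.7 and 395 CPM at Day 30, 384, 358 and 298 CPM at Day 60, and 342, 473, 321 and 289 CPM at Day 113. The ranges of all 3 days overlapped, and the Day 113 range enclosed both others, with well 2 at its top. NKX2-5 was not called in any comparison. From Day 30 to Day 113 its log2 fold change was -0.06 (95% interval -0.35 to 0.22, edgeR adjusted p = 0.77), an interval that spans changes in either direction.

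TBX5, on chromosome 12 (114353931 to 114408442), is the T-box factor of the atria and left ventricle whose loss causes Holt-Oram syndrome. It measured 92.5, 87.3, 82.9 and 100.04 CPM at Day 30, 137, 98.7 and 130.3 CPM at Day 60, and 90.1, 83.3, 81.2 and 76.2 CPM at Day 113. Day 60 wells 1 and 3 lay above every other well, while Day 60 well 2 lay inside the Day 30 range. TBX5 rose 1.35-fold to Day 60 (log2 fold change 0.43, SE 0.12, edgeR adjusted p = 0.025) and then fell 1.48-fold to Day 113 (-0.56, SE 0.12, adjusted p = 0.0025). The change over the whole course was not called (-0.13, 95% interval -0.36 to 0.10, adjusted p = 0.38). It was the only one of the 10 called higher and then lower, beside 0.915% of all genes. The rise to Day 60 was lost without Day 30 well 1, 2 or 3 or Day 60 well 1 or 3, with adjusted p-values of 0.055 to 0.12.

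TBX20, on chromosome 7 (35202430 to 35254147), is a T-box factor that is needed to maintain adult heart muscle as well as for chamber growth in the embryo. It stood at 711, 570.0, 572 and 680.4 CPM at Day 30, 906, 739.9 and 712 CPM at Day 60, and 516, 327, 519 and 486 CPM at Day 113. The days did not overlap in any pair, with Day 60 highest and Day 113 lowest. TBX20 fell 1.70-fold from Day 60 to Day 113 (log2 fold change -0.77, SE 0.15, edgeR adjusted p = 0.0017) and 1.37-fold over the whole course (-0.46, SE 0.14, adjusted p = 0.019). The step up to Day 60 was not called (0.31, 95% interval -0.01 to 0.63, adjusted p = 0.23), and the highest Day 30 well (711) and the lowest Day 60 well (712) nearly touched. The fall over the whole course was not called without Day 30 well 1 (adjusted p = 0.067) or without Day 30 well 4 (0.051). Day 113 well 2 was far below the other 3, and without it the fall from Day 60 was -0.63 (adjusted p = 0.0011).

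A test of the difference between the steps, the second minus the first, called 3 of the 10 factors lower and 0 higher (NKX2-5 alone was above 0, at 0.14), where 9.34% of all genes were called, 4.38% lower and 4.97% higher. These were TBX5 (-0.99, SE 0.20, edgeR adjusted p = 0.0066), TBX20 (-1.08, SE 0.26, adjusted p = 0.017) and HAND2 (-0.88, SE 0.26, adjusted p = 0.042). The test compares whole steps of unequal length in days and not changes per day. All 3 calls were lost without Day 60 well 1, with adjusted p-values of 0.060, 0.12 and 0.20. That of HAND2 was also lost without Day 30 well 2, 3 or 4, Day 60 well 2 or 3, or Day 113 well 3, with adjusted p-values of 0.052 to 0.10. The 7 proliferation markers were also highest at Day 60, at 370.2 to 464 CPM in sum at Day 30, 574 to 833 at Day 60 and 216 to 421 at Day 113. Of those 7 markers, 2 were higher at Day 60 than at Day 30, beside 4.39% of all genes. All 7 were lower at Day 113 than at Day 60, beside 11.1% of all genes. Their part in the Day 60 levels of TBX5, TBX20 and HAND2 was not tested.

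MEF2A, on chromosome 15 (99565417 to 99716466), encodes a MADS-box factor that binds sarcomere, metabolic and calcium-handling genes. Its level was 483, 405, 423 and 472 CPM at Day 30, 549, 432 and 514 CPM at Day 60, and 524, 317, 478 and 504 CPM at Day 113. Day 113 well 2 was the lowest of all 11 libraries and the ranges overlapped in every pair of days. MEF2A was not called in any comparison. Its log2 fold change from Day 30 to Day 113 was 0.03 (95% interval -0.26 to 0.32, edgeR adjusted p = 0.89).

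MEF2C, on chromosome 5 (88717117 to 88904257), is the family member needed earliest in the heart, where ISL1 and GATA factors drive one of its enhancers. It measured 77.3, 69.4, 64.5 and 70.9 CPM at Day 30, 79.2, 58.9 and 74.6 CPM at Day 60, and 77.1, 44.8, 62.2 and 43.5 CPM at Day 113. The Day 113 wells were split, with well 1 at the level of Day 30 and wells 2 and 4 below every other library. MEF2C was not called, at -0.31 on the log2 scale from Day 30 to Day 113 (95% interval -0.64 to 0.03, edgeR adjusted p = 0.15). With the well number as a replicate block in the fit, it was called lower (-0.35, adjusted p = 0.037). Without Day 113 well 1 it was called lower than at Day 30 (-0.49, adjusted p = 0.011) and than at Day 60 (-0.50, adjusted p = 0.021). That well also had the highest sum of endothelial markers (928 CPM) and of fibroblast and epicardial markers (10352 CPM) of all 11 libraries, and the part of those cells in the MEF2C level was not tested.

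HAND1, on chromosome 5 (154474972 to 154478264), is the HAND factor of the embryonic left ventricle and of extraembryonic tissue. It stood at 84.9, 95.9, 90.5 and 71.7 CPM at Day 30, 63.3, 56.8 and 59.3 CPM at Day 60, and 26.6, 32.2, 31.8 and 31.4 CPM at Day 113. Each later day lay wholly below the day before it. HAND1 fell 1.43-fold to Day 60 (log2 fold change -0.52, SE 0.11, edgeR adjusted p = 0.0075) and 1.96-fold from Day 60 to Day 113 (-0.97, SE 0.11, adjusted p = 2.9e-05). Over the whole course it fell 2.81-fold (-1.49, SE 0.11, adjusted p = 5.6e-08). It was the only one of the 10 called lower in both steps, beside 1.06% of all genes. Of all 19990 genes, 0.435% had a smaller p-value over the whole course.

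HAND2, on chromosome 4 (173524969 to 173530229), is the HAND factor of the embryonic right ventricle and outflow tract and also of the epicardium and sympathetic neurons. It measured 447, 346, 361 and 417 CPM at Day 30, 522, 460.01 and 399 CPM at Day 60, and 218, 354, 292 and 310.1 CPM at Day 113. All Day 113 wells lay below all Day 60 wells, and Day 113 well 2 was above 1 Day 30 well. HAND2 fell 1.57-fold from Day 60 to Day 113 (log2 fold change -0.65, SE 0.15, edgeR adjusted p = 0.0047) and 1.34-fold from Day 30 (-0.42, SE 0.14, adjusted p = 0.025). The step to Day 60 was not called (0.23, 95% interval -0.08 to 0.54, adjusted p = 0.40). The call between Day 30 and Day 113 was lost without Day 30 well 1 or 4 or Day 113 well 1 or 3, with adjusted p-values of 0.053 to 0.089.

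ISL1, on chromosome 5 (51383391 to 51394738), encodes the LIM-homeodomain factor of second heart field progenitors and pacemaker cells. Its level was 8.82, 11.3, 12.2 and 8.76 CPM at Day 30, 6.70, 6.74 and 8.01 CPM at Day 60, and 4.96, 3.82, 3.82 and 3.05 CPM at Day 113. The 3 days did not overlap in any pair. ISL1 fell 1.82-fold from Day 60 to Day 113 (log2 fold change -0.87, SE 0.22, edgeR adjusted p = 0.0085) and 2.62-fold over the whole course (-1.39, SE 0.20, adjusted p = 7.7e-05). The first step was not called (-0.52, 95% interval -0.98 to -0.06, adjusted p = 0.15). The 7 sinoatrial nodal markers, which ISL1 accompanies in pacemaker cells, summed to 406 to 447 CPM at Day 30, 405 to 559 at Day 60 and 369 to 434 at Day 113. Of those 7 markers, 3 were higher and 4 lower at Day 113 than at Day 30, beside 17.3% and 17.2% of all genes. The part of those markers in the fall of ISL1 was not tested.

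Counted by wells that did not overlap rather than by the test, 5 factors were lower at Day 113 than at Day 30 (GATA4, GATA6, TBX20, HAND1 and ISL1), where 18.0% of all genes were. There 35.1% of all genes did not overlap in either direction, and 17.1% were higher. From Day 60 to Day 113 the wells of 6 factors did not overlap, all lower, where 30.6% of all genes did not overlap, 14.4% lower and 16.2% higher. From Day 30 to Day 60 the wells of TBX20 were all higher (10.7% of all genes), and those of GATA4, HAND1 and ISL1 were all lower (14.1% of all genes), where 24.8% of all genes did not overlap in either direction.

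Levels of different factors were compared per length, as CPM per 1000 bases of the union of a gene's exons (RPKM). TBX20 was the most abundant at every day, with means of 339 RPKM at Day 30, 420.01 at Day 60 and 247 at Day 113. NKX2-5 came next at 186, 173 and 178 RPKM, then HAND2 at 141, 166 and 106 RPKM and GATA4 at 123, 108 and 75.9 RPKM. MEF2A had 74.6, 83.3 and 76.2 RPKM and GATA6 73.5, 67.9 and 56.2 RPKM. HAND1 was at 49.3, 34.4 and 17.6 RPKM and TBX5 at 20.8, 28.1 and 19.0 RPKM, so their order was exchanged at Day 113. MEF2C (8.16, 8.20 and 6.58 RPKM) and ISL1 (4.18, 2.91 and 1.59 RPKM) closed the order at all 3 days. Wells of neighbours in the order overlapped for HAND2 with GATA4 and MEF2A with GATA6 at Day 30, and for NKX2-5 with HAND2 and MEF2A with GATA6 at Day 60. At Day 113 they overlapped for TBX20 with NKX2-5, HAND2 with MEF2A, MEF2A with GATA4 and TBX5 with HAND1. By the length of the principal transcript instead, GATA6 and MEF2A exchanged places at Day 30 and GATA4 and MEF2A at Day 113, and each of these pairs overlapped.

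**Figure D3:**
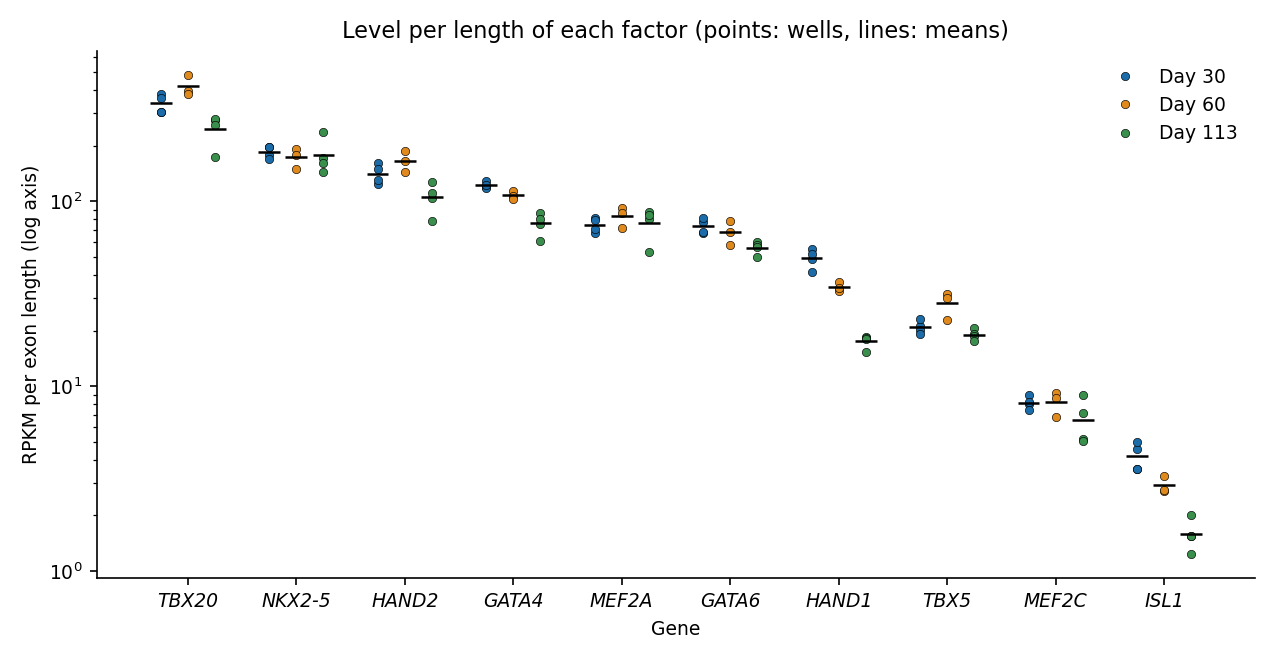
Level per exon length (RPKM, log axis) of each factor in every well, ordered by the mean at Day 30, with lines at the means of the 3 days. TBX20 leads and ISL1 is lowest at each day, and HAND1 drops from above TBX5 to its level by Day 113.

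Ratios within a well do not depend on how libraries are scaled. HAND2 counts exceeded HAND1 counts by a log2 ratio of 2.20 ± 0.33 (SD, n = 4) at Day 30, 2.94 ± 0.16 (n = 3) at Day 60 and 3.25 ± 0.18 (n = 4) at Day 113. The log2 ratio of ISL1 to NKX2-5, a progenitor factor against one kept in heart muscle, was -5.19 ± 0.35, -5.59 ± 0.33 and -6.50 ± 0.35 at the same days. For TBX20 to TBX5 it was 2.80 ± 0.10, 2.69 ± 0.23 and 2.46 ± 0.33, and for MEF2C to MEF2A -2.66 ± 0.09, -2.82 ± 0.05 and -3.02 ± 0.35. Between Day 30 and Day 113 the wells did not overlap for any of the 5 ratios. For single genes, the CPM of 35.1% of all genes did not overlap between these days. How often ratios of other pairs of genes do so was not counted. The differences of the 5 ratios between these days were 1.05 for HAND2 to HAND1, -1.31 for ISL1 to NKX2-5, 0.32 for GATA6 to GATA4, -0.34 for TBX20 to TBX5 and -0.36 for MEF2C to MEF2A. Each of these 5 had a two-sided exact permutation p of 0.0286, the smallest that 4 wells against 4 can give. After adjustment over the 15 ratio tests it was 0.0857. A test of 3 wells against 4 cannot go below 0.0571. With so few wells no ratio could pass 0.05 after adjustment, so that 0 of the 15 passed says nothing about the ratios.

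**Figure D4:**
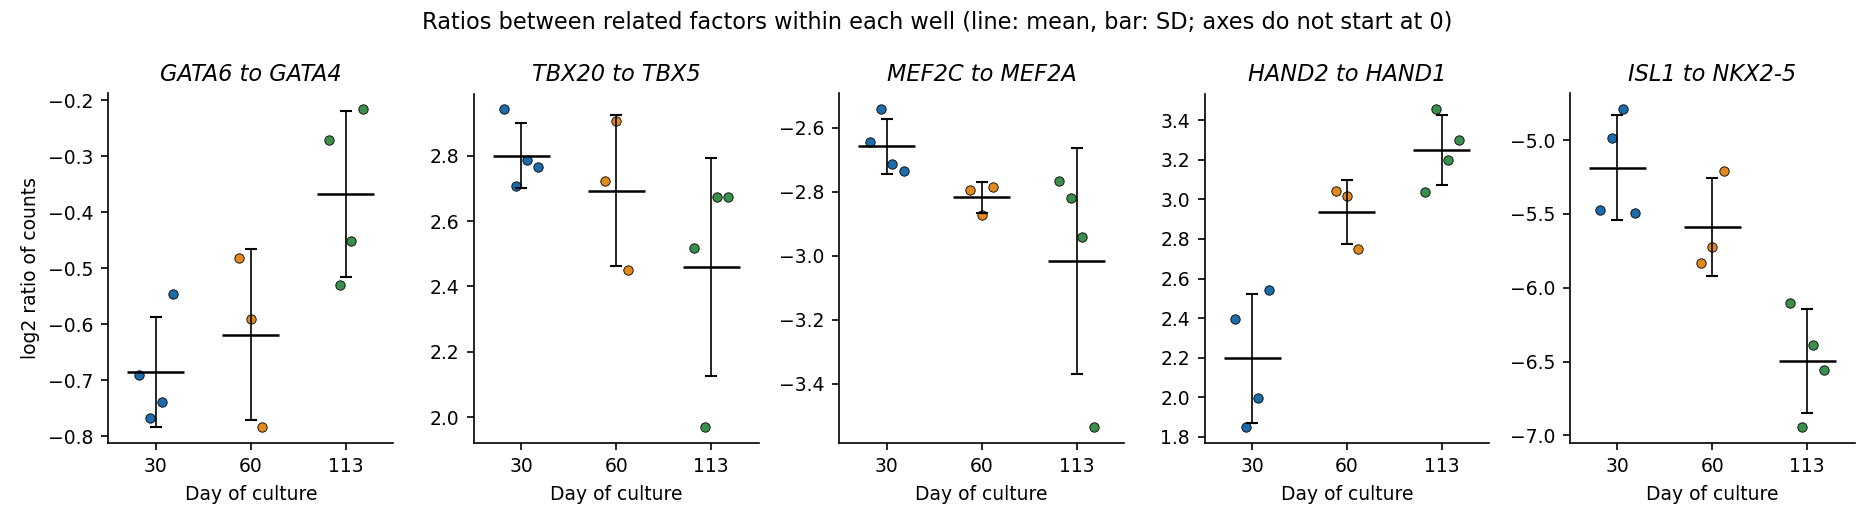
Log2 ratio of counts of related factors in each well by day, with a line at the mean and a bar for the SD, on axes that do not start at 0. The HAND2 to HAND1 ratio climbs from 2.20 to 3.25 and the ISL1 to NKX2-5 ratio drops from -5.19 to -6.50.

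Antisense genes cross the exons of several factors. In the GENCODE v29 annotation, exons of GATA6, TBX5, MEF2C and HAND2 overlap GATA6-AS1, TBX5-AS1, MEF2C-AS1 and HAND2-AS1, and MEF2A overlaps LYSMD4, all on the opposite strand. GATA4, NKX2-5, TBX20, HAND1 and ISL1 overlap no other exon. Whether the counting used strand is not given in the sources used here, so reads of a factor and of its antisense gene cannot be told apart where they overlap. HAND2-AS1 measured 242, 186, 212 and 259 CPM at Day 30, 395, 317 and 359 CPM at Day 60, and 184, 164, 194 and 222 CPM at Day 113. All Day 60 wells were above all other wells. HAND2-AS1 rose to Day 60 (log2 fold change 0.67, SE 0.13, edgeR adjusted p = 0.0033) and fell to Day 113 (-0.90, SE 0.13, adjusted p = 1.5e-04), and its mean levels had the same order of days as those of HAND2. TBX5-AS1 was at 2.18, 2.54, 3.72 and 3.71 CPM at Day 30, 5.27, 6.01 and 3.94 at Day 60 and 4.73, 6.71, 5.39 and 7.74 at Day 113. It rose from Day 30 to Day 113 (1.01, SE 0.26, adjusted p = 0.0067), where TBX5 was not called, and the difference between the pair was not tested. MEF2C-AS1 had 26 to 32 counts per library at Day 30, 21 to 42 at Day 60 and 7, 0, 9 and 8 at Day 113, and fell over the whole course (-2.39, SE 0.76, adjusted p = 0.022). A count of 0 allows up to 3 counts, which covers counting error only. GATA6-AS1 was at 72.5 to 103 CPM at Day 30 and 67.5 to 88.5 at Day 113 and was not called (-0.13, adjusted p = 0.48).

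**Figure D5:**
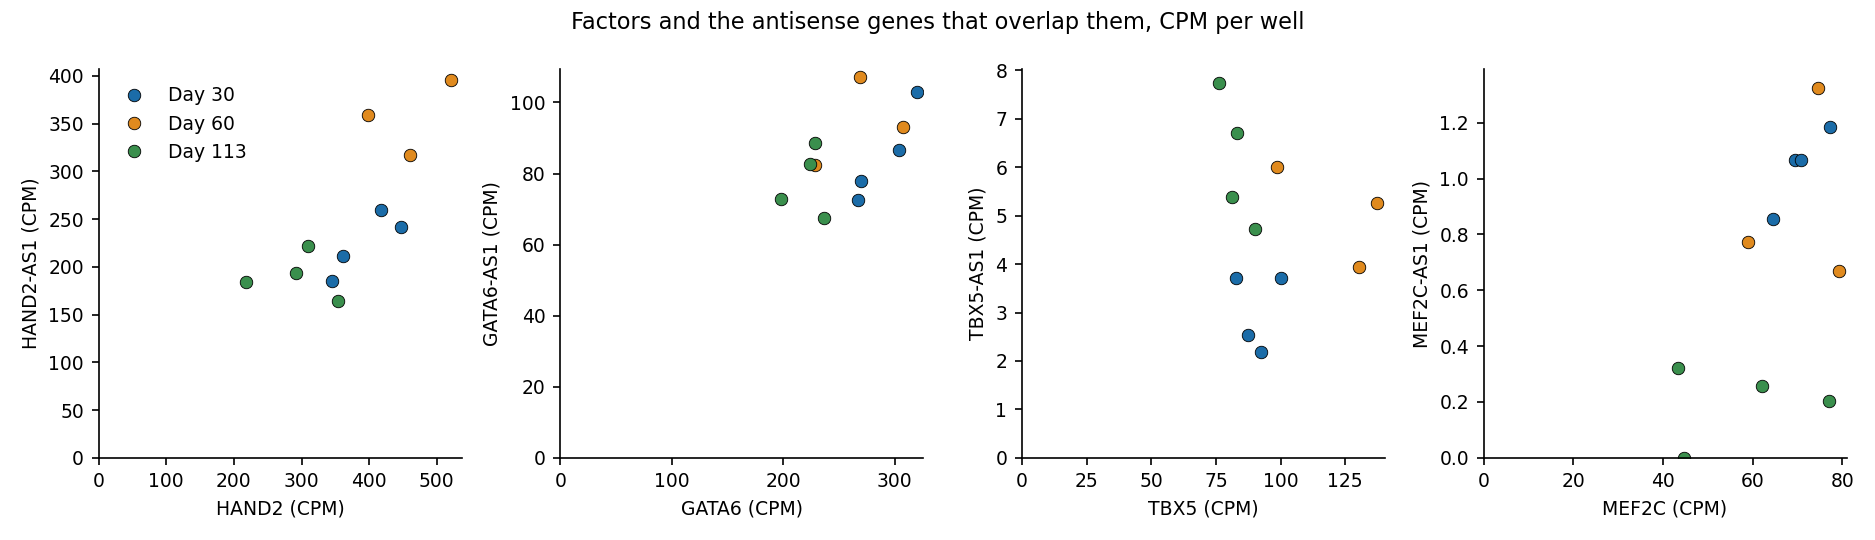
CPM of 4 factors (horizontal axes) against the antisense gene that overlaps each (vertical axes), 1 point per well, coloured by day. Day 60 wells stand above the rest for HAND2-AS1, and MEF2C-AS1 reaches 0 in 1 well of Day 113.

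Among 36 partners and coregulators of the factors in the table, 7 were higher and 12 lower at Day 113 than at Day 30, beside 17.3% and 17.2% of all genes. Their median log2 fold change was -0.11, beside -0.02 over all genes. GATA5, the remaining heart GATA factor, was at 20.6 ± 3.1 CPM (SD, n = 4) at Day 30, 8.52 ± 0.32 (n = 3) at Day 60 and 2.22 ± 0.53 (n = 4) at Day 113, a log2 fold change of -3.20 over the course (edgeR adjusted p = 1.5e-08). ID1, an inhibitor that binds the E-protein partners of basic helix-loop-helix factors, fell by 1.79 on the log2 scale (adjusted p = 9.1e-07). SRF, the MADS-box factor that works with GATA4 and NKX2-5 on muscle genes, rose by 0.90 (adjusted p = 7.7e-05). LDB2, a cofactor of LIM-homeodomain proteins, rose by 1.13 (adjusted p = 0.042), beside the higher endothelial markers of Day 113, whose part was not tested. At Day 60 against Day 30, 1 of the 36 was higher and 8 lower, beside 4.39% and 5.91% of all genes. At Day 113 against Day 60, 9 were higher and 8 lower, beside 12.9% and 11.1% of all genes.

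Of 30 heart genes known as targets of these factors, 13 were higher and 4 lower at Day 113 than at Day 30, beside 17.3% and 17.2% of all genes. Their median log2 fold change was 0.23, beside -0.02 over all genes. XIRP2, an actin-binding protein of the intercalated disc and a MEF2 target, went from 3.97 ± 0.56 CPM (SD, n = 4) at Day 30 to 35.3 ± 7.8 (n = 4) at Day 113 (log2 fold change 3.15, edgeR adjusted p = 1.1e-07). GJA5, a gap junction gene of atria and conduction tissue and a target of TBX5 and NKX2-5, went from 22.2 ± 2.7 to 131 ± 42 CPM (2.56, adjusted p = 8.0e-08). GJA5 is also made by arterial endothelium, whose markers were higher at Day 113, and their part was not tested. MYH7, the slow myosin heavy chain, fell by 0.73 on the log2 scale (adjusted p = 5.2e-04), and HCN4, the pacemaker channel, fell by 0.46 (adjusted p = 0.0073). At Day 60 against Day 30, 11 of the 30 were higher and 0 lower by edgeR (13 and 1 at an unadjusted p under 0.05). The shares of all genes called there were 4.39% higher and 5.91% lower. At Day 113 against Day 60, 7 were higher and 4 lower, beside 12.9% and 11.1% of all genes.

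Of 17 heart field and mesoderm progenitor genes in the table, 4 were higher and 10 lower at Day 113 than at Day 30, beside 17.3% and 17.2% of all genes. Their median log2 fold change was -0.60, beside -0.02 over all genes. TDGF1, a Nodal co-receptor of early mesoderm, fell by 2.96 on the log2 scale (edgeR adjusted p = 3.9e-06), mostly by Day 60 (9.40 ± 2.5 CPM at Day 30, SD, n = 4, and 2.12 ± 0.98 at Day 60, n = 3). CXCR4, a chemokine receptor of mesoderm that endothelium also makes, rose by 3.23 (adjusted p = 9.6e-07), and MESP1, a factor of cardiac mesoderm, rose by 1.08 (adjusted p = 0.045) and stayed under 3 CPM on average. At Day 60 against Day 30, 0 of the 17 were higher and 5 lower by edgeR (1 and 6 at an unadjusted p under 0.05). The shares of all genes called there were 4.39% higher and 5.91% lower. At Day 113 against Day 60, 3 were higher and 6 lower, beside 12.9% and 11.1% of all genes.

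The genes whose profile over the 11 libraries was most like that of each factor were found among the 11946 genes with a mean of at least 5 CPM, by the root mean square difference of log2 CPM, each centred on its own mean. For HAND1 they were LOXL4 (0.118), P3H2 and RASL10B, and for ISL1 they were LEF1 (0.144), MIDN and SKIL. Among the factors, GATA4 and GATA6 were each other's nearest (0.181), and so were HAND1 and ISL1 (0.238). The most alike of the 11946 genes for GATA4 were KDM4B (0.0632), CPNE1 and CCNI, and for GATA6 they were ALKBH5 (0.0732), MAP4 and RETREG2. For NKX2-5 they were IRF2BP1 (0.0754), RABL6 and ERCC1. For TBX5 they were ARHGAP12 (0.102), TP53INP2 and NGLY1, and for TBX20 they were FOXN3 (0.0937), SLC25A36 and STRN. For HAND2 they were GADD45B (0.108), WDR54 and LRRC10. For MEF2A they were MAP3K20 (0.0671), VWA8 and MKLN1, and for MEF2C they were YEATS2 (0.0966), SLC30A1 and MTX3. These libraries share the day of culture, so likeness here describes profiles and is not a test.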

How the data were processed

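Poly(A) RNA from 11 wells was sequenced as paired reads of 150 bases, per the labels. The authors deposited whole-number read counts for 19990 gene symbols, with no normalization. STAR 2.5.3a, featureCounts 2.0.3 and the hg38 genome are named in the submitters' processing notes, while the annotation and strand setting are not given in the sources used here. The TPM values deposited by the authors imply gene lengths that did not agree between libraries (median Spearman rho -0.0017 over 55 library pairs), so TPM was used only in that check. Gene positions and exon lengths were taken from GENCODE v29, and promoters from RefSeq GRCh38.p14.

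Counts of all 11 libraries (24.1 to 34.5 M) were fitted together in edgeR 4.0.16 (R 4.3.3) with TMM scaling (factors 0.966 to 1.04) and day as the single factor. Filtering with filterByExpr removed 0 genes. Quasi-likelihood F-tests were adjusted by the Benjamini-Hochberg method over all genes, with a threshold of 0.05, and every adjusted p comes from this test unless another tool is named. The 95% intervals use the standard error and the test's degrees of freedom. Ratios used a pseudocount of 0.5 and exact permutation tests. Wells of a day differed beyond counting noise (chi-square per degree of freedom 11.7 to 88.7), so none was taken for a repeat. Wells carry numbers that recur at each day, and the labels give them no shared origin. Deviations from the day means correlated at 0.130 to 0.163 in all 4 same-number pairs of Day 30 and Day 113. The same correlations were 0.055 to 0.163 for Day 30 with Day 60 and 0.0075 to 0.292 for Day 60 with Day 113. The main fit and the permutation tests treated all wells as unpaired, so their p-values leave out any such pairing. Well number entered only in the replicate block, as an alternative. The procedure was tested on simulated data. DESeq2 1.42.0 and limma 3.58.1 (voom), other scalings, filters and thresholds, a replicate block and leaving out each well were alternatives.

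All 10 factors are described. Of each other list, the rule named the 2 highest and 2 lowest log2 fold changes from Day 30 to Day 113 among called genes with a mean of at least 1 CPM in the higher day, and the 3 genes most like each factor were named. Of these, 1 gene selected by the rule is not reported here. The members and lists were chosen with earlier results of these data known.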

Additional observations from a re-analysis of the deposited data

Results flagged for a closer look

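Among 38 groups of 4 wells (the factors, their antisense genes and the ratios at Day 30 or Day 113), 2 held a well whose gap to its nearest neighbour passed Dixon's 95% critical share of the range of the group. Chance gives such a gap in about 1 in 20 groups. TBX20 stood at 327 CPM in Day 113 well 2, with a gap of 0.831 of the range. Without that well the log2 fold change of TBX20 was -0.32 from Day 30 to Day 113 (edgeR adjusted p = 0.029). HAND1 stood at 26.6 CPM in Day 113 well 1, with a gap of 0.852 of the range, and without that well its log2 fold change over the course was -1.43.

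For 3 factors the step from Day 60 to Day 113 differed from the step from Day 30 to Day 60 by a test of that difference in edgeR. That test called 9.34% of all genes, 4.38% lower. The second step minus the first was -0.99 for TBX5 (adjusted p = 0.0066), -1.08 for TBX20 (adjusted p = 0.017) and -0.88 for HAND2 (adjusted p = 0.042). All 3 calls needed Day 60 well 1. The HAND2 call was lost as well without Day 30 well 2, 3 or 4, Day 60 well 2 or 3, or Day 113 well 3.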

How the results depend on the processing

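The calls of GATA4, HAND1 and ISL1 from Day 60 to Day 113 and from Day 30 to Day 113 held in every alternative run. With an adjusted p under 0.01, the factors called numbered 1 at Day 60 against Day 30 and 1 for the difference between the steps. At Day 113 against Day 30 the calls of TBX20 (edgeR adjusted p = 0.019) and HAND2 (0.025) were lost at that threshold. The joint call of GATA6 (0.021) was lost too, while every factor called at Day 113 against Day 60 stayed called. The genes called then numbered 937 at Day 60 against Day 30, 2545 at Day 113 against Day 60, 4552 at Day 113 against Day 30, 4800 for any change and 618 for the difference between the steps. Leaving out each well in turn gave 1 to 2 factors and 1220 to 2618 genes at Day 60 against Day 30, 6 to 7 and 3317 to 4735 at Day 113 against Day 60, and 4 to 6 and 5657 to 6977 at Day 113 against Day 30. It gave 6 to 8 factors and 6360 to 7427 genes for any change, and 0 to 3 and 643 to 2221 for the difference between the steps. The genes at Day 60 against Day 30 numbered 1259, 1220 and 1323 without Day 60 well 1, Day 60 well 3 and Day 30 well 2, and those for the difference numbered 643 and 774 without Day 60 well 1 and 3. Wells of the same number correlated at 0.0075 to 0.292 (8 of 10 pairs over 0.1) and of other numbers at -0.20 to 0.22, and 16 of 20 correlated best with their own number, a hint of pairing from the data and not from the labels. With the replicate block, 2, 6 and 7 factors were called in the 3 pairs of days, and 2474, 4954 and 7143 genes. MEF2C was then called lower at Day 113 than at Day 30 (-0.35, adjusted p = 0.037) and its value at Day 60 turned to -0.064, and the block changed no other call of a factor. Upper-quartile scaling turned NKX2-5 at Day 113 against Day 60 to -0.026. Leaving out 1 well reversed only values of factors and ratios that were not called, and their ranges over the wells left out follow. At Day 60 against Day 30 they were -0.20 to 0.014 for GATA6, -0.16 to 0.021 for NKX2-5 and -0.056 to 0.12 for MEF2C, and -0.0018 to 0.15 and -0.21 to 0.014 for the ratios of GATA6 to GATA4 and TBX20 to TBX5. At Day 113 they were -0.13 to 0.13 (NKX2-5) and -0.22 to 0.011 (MEF2A) against Day 60, and -0.23 to 0.028 (NKX2-5) and -0.041 to 0.17 (MEF2A) against Day 30. For the difference between the steps they were -0.40 to 0.029 for GATA6 and -0.089 to 0.27 for NKX2-5. The cause was not tested, except that the lower counts at 0.01 follow from the stricter threshold. The number of wells, 3 or 4 per day from 1 differentiation, limits what could be called.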
